A study of Bos indicus x Bos taurus with 45 samples.

Results

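The miR-30 family is a set of microRNAs (miRNAs), the short RNAs that guide Argonaute proteins to messenger RNAs and repress them. Its members were taken by name from small RNA sequencing counts of bovine fetal tissues, as every listed miRNA named miR-30 with a letter from a to f. The rule found 10 entries in each of the 4 tissue tables, out of 436 miRNAs listed for kidney, 460 for tongue, 439 for skeletal muscle and 563 for liver. Of these, 6 were the main, more abundant strand of their hairpin precursor (bta-miR-30a-5p, bta-miR-30b-5p, bta-miR-30c, bta-miR-30d, bta-miR-30e-5p and bta-miR-30f), and 4 were the other strand (miR-30a-3p, miR-30d-3p, miR-30e-3p and miR-30f-3p). The prefix bta, for cattle, is left out below. No other strand of miR-30b or miR-30c was listed. All 10 entries passed the filter on low counts in all 4 tables, and their counts per library ran between 116 and 714994 reads.

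The fetuses were crosses of Bos indicus and Bos taurus, collected near day 105 of gestation. LOS fetuses were conceived with assisted reproduction (ART) and carried the label of large offspring syndrome, an overgrowth condition of ruminants that has been used as a model of the human Beckwith-Wiedemann syndrome. ART fetuses, sequenced in liver only, came from assisted reproduction and were labelled healthy, and control fetuses came from artificial insemination and were labelled healthy. The libraries numbered 4 LOS and 4 control in kidney, 4 LOS, 4 ART and 5 control in liver, 4 LOS and 4 control in skeletal muscle, and 7 LOS and 9 control in tongue. In tongue alone the sex was given, with 4 female and 3 male LOS fetuses and 5 female and 4 male controls. The sources used here do not say how the embryos were made or how LOS was scored.

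The strands named 5p in this family share one seed, the stretch near the 5′ end that pairs with targets, so the members are expected to bind overlapping sets of messenger RNAs. In other mammals the family is known for its abundance in kidney podocytes and tubules, for repressing SNAI1 and other genes of the epithelial-to-mesenchymal transition, and for falling in fibrosis. In human and mouse, the gene of miR-30e lies with a copy of the miR-30c gene within the gene NFYC, and the genes of miR-30b and miR-30d are neighbours. The mature strands differ from each other by few bases, and the sources used here do not say how the authors assigned reads that matched several of them.

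Levels are given as CPM, the reads of a miRNA divided by the listed reads of its library and multiplied by 1000000. The listed totals were lowest in liver, at 3379816 to 4976770 reads, followed by skeletal muscle at 4744968 to 6456252, kidney at 6132982 to 9170756 and tongue at 9357833 to 13822348. Markers fitted the labelled tissues: hepatocyte miR-122 averaged 18070.5 CPM in liver, against 12.5 CPM in skeletal muscle and 8.38 CPM in kidney, and the tongue table does not list it. Muscle miR-133a averaged 14650 CPM in skeletal muscle and 15679 CPM in tongue, against 82.3 CPM in liver and 34.5 CPM in kidney. Other muscle markers were also found in both, with miR-133b at 3231 CPM in skeletal muscle and 3040 in tongue. For miR-206 the means were 750 and 653 CPM, and for miR-1 they were 230 and 345 CPM. The muscle markers miR-208b and miR-499 were far lower in tongue, at 27.5 and 16.8 CPM, than in skeletal muscle, at 934 and 418 CPM. Squamous epithelial miR-205 averaged 3074 CPM in tongue. Kidney and gut epithelial miR-192 averaged 22246 CPM in kidney, but 68919.6 CPM in liver. Tongue control 9 stood apart from the other tongue libraries in the kidney and gut epithelial miRNAs: it had 6810.1 CPM of miR-192, against 1465 to 2406 CPM in the others, and 1112 CPM of miR-215, against 21.9 to 128 CPM. The same library had the highest miR-30a-5p (26402 CPM), miR-30d (3103 CPM) and miR-30e-5p (4626 CPM) of the 9 tongue controls. Its other main strands lay below the median of the tongue controls. These were miR-30b-5p (694 CPM, median 717), miR-30c (1737 CPM, median 1840) and miR-30f (599 CPM, median 654). Tissue samples are mixtures of cells, so fewer cells of a type and less RNA per cell cannot be told apart.

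The family took its largest share of the miRNA reads in kidney. Its 10 entries made up 9.73% ± 0.583 of the reads listed for kidney (SD, n = 8). The share was 5.02% ± 0.452 for liver (n = 13), 3.51% ± 0.329 for skeletal muscle (n = 8) and 3.42% ± 0.245 for tongue (n = 16). The lowest kidney library, at 8.97%, lay above the highest liver library, at 5.83%, and the ranges of muscle and tongue overlapped. As an alternative, the 3 most abundant miRNAs of each tissue were left out of both the family and the total. The shares were then 6.60% in liver, 5.02% in muscle, 4.87% in tongue and 4.33% in kidney. In kidney alone this removed miR-30a-5p from the family, so the kidney value cannot be ranked against the others.

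miR-30a-5p was the dominant member in every tissue, and the make-up of the family differed most in liver. It held 78.5% of the main-strand family reads in kidney, 76.2% in skeletal muscle, 70.1% in tongue and 52.8% in liver. miR-30e-5p held 5.18% in kidney, 7.54% in muscle and 12.4% in tongue, against 19.3% in liver. miR-30c showed the same order, with 1.93%, 3.75% and 5.62% in kidney, muscle and tongue against 9.04% in liver. The ratio of miR-30a-5p to miR-30e-5p reads within a library, which needs no scaling, was 15.2 ± 0.711 in kidney, 10.1 ± 0.777 in muscle, 5.69 ± 0.448 in tongue and 2.77 ± 0.401 in liver (SD, same n). The libraries of the 4 tissues did not overlap in this ratio, with 14.5 to 16.4 in kidney, 9.04 to 11.5 in muscle, 5.06 to 6.40 in tongue and 2.22 to 3.29 in liver.

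**Figure D1:**
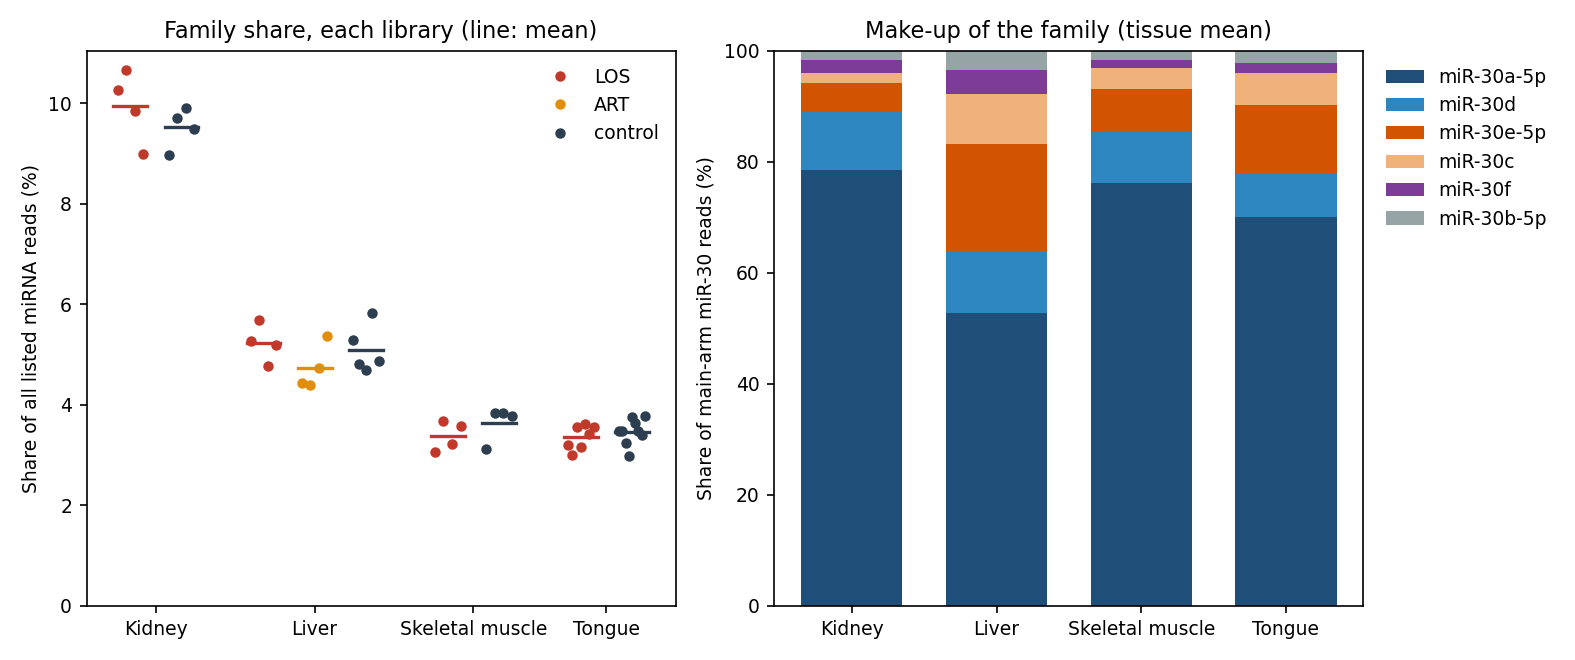
Left, the share of all listed miRNA reads (%) taken by the 10 miR-30 entries in each library, as 1 point per library with a line at the group mean. Right, the share (%) of each main strand in the main-strand family reads, averaged over the libraries of a tissue: miR-30a-5p fills 78.5% of the kidney bar and 52.8% of the liver bar.

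The members fell into different tissue orders of plain CPM. miR-30a-5p averaged 74950.2 ± 5136 CPM in kidney, where it was the third most abundant miRNA in every library, against 26222 ± 2701 in muscle, 26114 ± 3789 in liver and 23571 ± 1879 in tongue. The lowest kidney library (67870.5 CPM) lay above the highest library of any other tissue (32039 CPM), while liver, muscle and tongue overlapped. miR-30d, which in human and mouse is transcribed beside miR-30b, averaged 9975 ± 395 CPM in kidney and 5493 ± 267 in liver, and less in muscle (3200.3 ± 301) and tongue (2622 ± 403), with overlap between muscle and tongue only. In each of the 8 fetuses numbered alike in the 4 tissues, both miRNAs were highest in kidney.

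miR-30e-5p, miR-30c and miR-30b-5p were highest in liver and lowest in muscle in all 8 of these fetuses by plain CPM. miR-30e-5p averaged 9438 ± 486 CPM in liver, 4936 ± 280.0 in kidney, 4158 ± 345 in tongue and 2591 ± 283 in muscle, with overlap between kidney and tongue only. miR-30c averaged 4429 ± 224 CPM in liver, 1885 ± 142 in tongue, 1834 ± 69.5 in kidney and 1281 ± 74.1 in muscle, and kidney and tongue overlapped. miR-30b-5p differed little between liver and kidney, at 1656 ± 61.3 and 1550.2 ± 84.1 CPM with overlapping libraries, and was lower in tongue (752 ± 50.9 CPM) and muscle (568.4 ± 30.4 CPM). miR-30f, a member named in cattle, likewise overlapped between kidney (2203 ± 249.8 CPM) and liver (2154 ± 343 CPM), and averaged 621 ± 67.6 CPM in tongue and 517 ± 45.5 CPM in muscle.

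**Figure D2:**
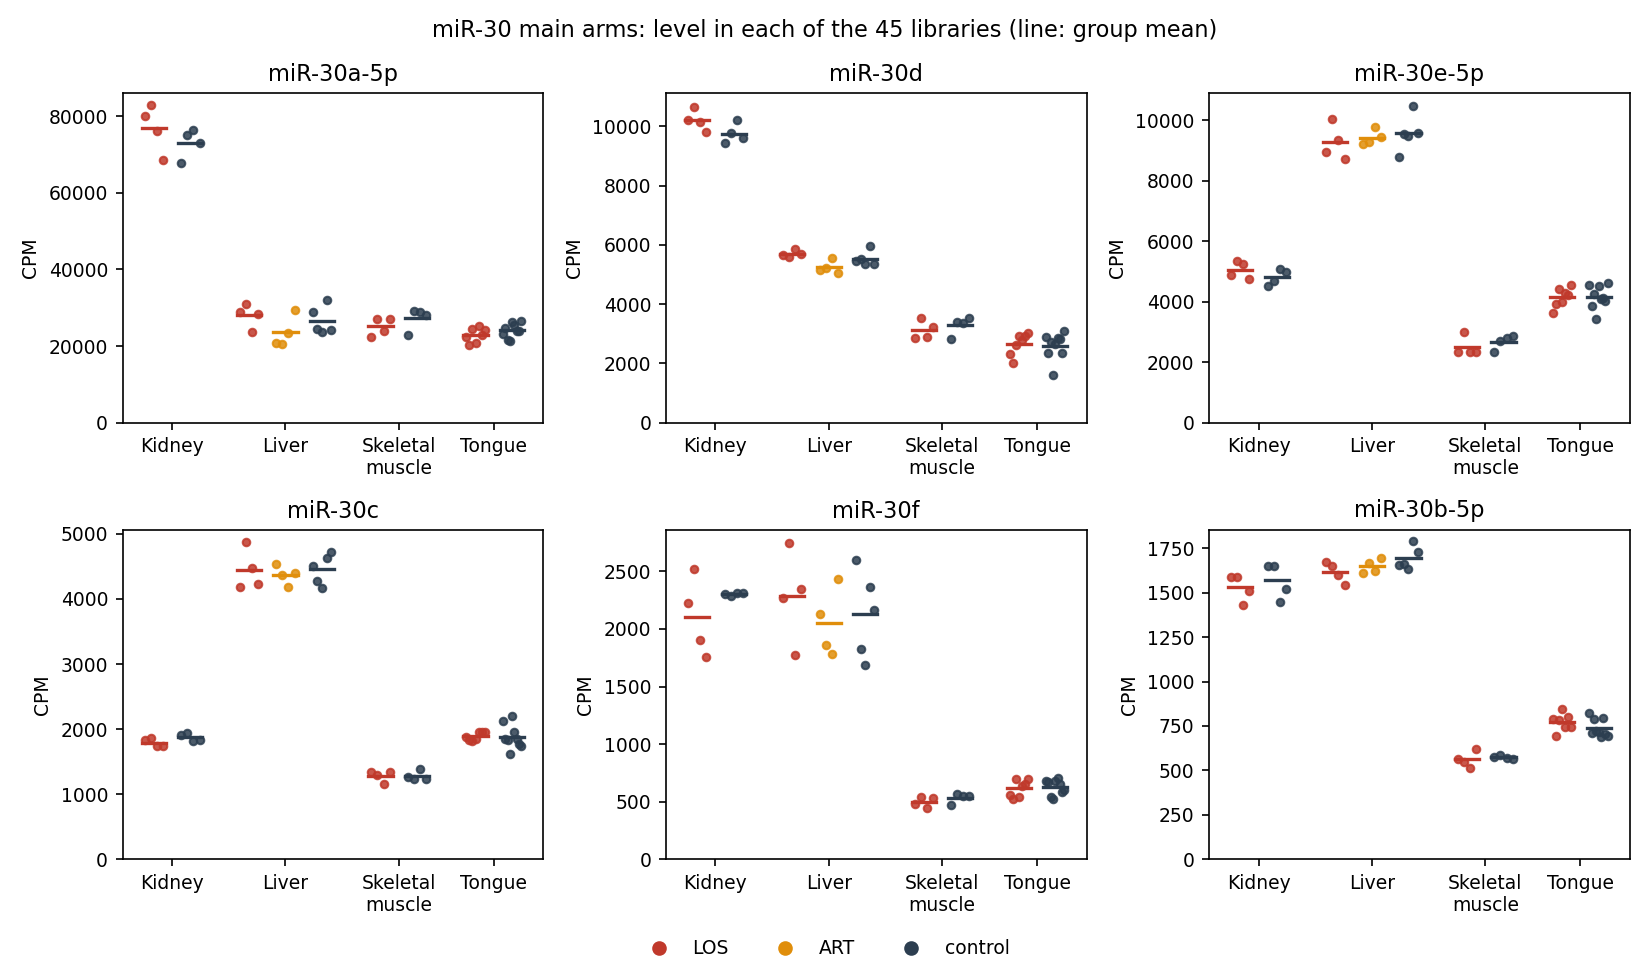
The level of the 6 main strands (CPM, linear axes from 0 that differ in range between panels) in each of the 45 libraries, by tissue and group, with a line at each group mean. The kidney points of miR-30a-5p and miR-30d lie above all other tissues, the liver points of miR-30e-5p and miR-30c lie above all other tissues, and the LOS, ART and control points overlap within tissues apart from LOS above ART for miR-30d in liver.

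Tissue pairs were tested in control fetuses 1 to 4 with edgeR's quasi-likelihood test on the 374 miRNAs listed in the 4 tables, with TMM scaling, the fetus number as a block and Benjamini-Hochberg adjustment. Most miRNAs were called between tissues, so the counts of members below have high backgrounds. A call is an adjusted p under 0.05. TMM factors ran between 1.36 and 1.46 in liver and between 0.751 and 0.876 in kidney, so the scaling moves these contrasts: the median miRNA was at a log2 difference of -0.24 for kidney against liver, and at -1.04 without scaling factors. Tissue and table cannot be told apart, since each tissue came as its own table. Controls 1 to 4 of tongue were all female. Red cell precursor markers were highest in liver: miR-451 averaged 13477 CPM in liver, against 224 in tongue, 159.9 in kidney and 110.3 in muscle, and miR-144 averaged 2585 CPM in liver, against means of 9.49 to 18.4 in the other tissues. The third listed marker, miR-486, which striated muscle is also known to express, averaged 43265.5 CPM in liver, 39256 in muscle, 19292 in tongue and 2146 in kidney. The sum of the 3 markers ran from 54718 to 65469 CPM in liver, 34072 to 45337 in muscle, 14029.7 to 25190.5 in tongue and 1859 to 3004 in kidney, and outside liver it was nearly all miR-486. Their part in the tissue differences was not tested.

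Kidney stood above muscle and tongue for the whole family. Against skeletal muscle, 10 of 10 entries were higher in kidney, where 77.3% of all miRNAs were called, 35.8% higher and 41.4% lower in kidney. Against tongue, 10 of 10 were again higher in kidney, where 80.2% of all miRNAs were called, 36.1% higher and 44.1% lower. The median entry lay 1.52 above muscle and 1.98 above tongue on the log2 scale, against -0.01 and -0.08 for the median of all miRNAs. In kidney against muscle, the log2 differences of the main strands were 2.20 ± 0.13 for miR-30f (SE), 1.66 ± 0.13 for miR-30d, 1.53 ± 0.07 for miR-30b-5p, 1.51 ± 0.11 for miR-30a-5p, 0.94 ± 0.09 for miR-30e-5p and 0.64 ± 0.08 for miR-30c. In kidney against tongue they were 2.48 ± 0.14 for miR-30d, 2.38 ± 0.13 for miR-30f, 2.12 ± 0.11 for miR-30a-5p, 1.49 ± 0.07 for miR-30b-5p, 0.70 ± 0.09 for miR-30e-5p and 0.46 ± 0.08 for miR-30c, and the last was 0.02 (adjusted p 0.796, edgeR) without scaling factors. That setting moved the median of all miRNAs to -0.52 and the split of called miRNAs to 86 higher and 218 lower, against 135 and 165 with TMM. miR-30e-5p and miR-30c thus had the smallest kidney differences in both comparisons.

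Kidney against liver split the family. Of the 10 entries, 8 were higher and 1 lower in kidney, where 86.6% of all miRNAs were called, 38.5% higher and 48.1% lower. miR-30a-5p was 4.68-fold higher in kidney with TMM scaling (log2 2.23 ± 0.11, edgeR adjusted p 1.55e-10), and its other strand miR-30a-3p moved alike (log2 2.29 ± 0.10). The size of this fold depends on the scaling: by plain CPM, miR-30a-5p averaged 73026.5 in control kidneys and 26637 in control livers. miR-30d was higher by log2 1.61 ± 0.13, miR-30f by 0.94 ± 0.13 and miR-30b-5p by 0.70 ± 0.07. miR-30c was lower in kidney, at log2 -0.43 ± 0.08 (edgeR adjusted p 0.000198), a call lost when the 3 most abundant miRNAs of each tissue were removed (-0.16, adjusted p 0.0835). miR-30e-5p missed the threshold, at -0.19 ± 0.09 with a 95% interval from -0.38 to 0.01 (edgeR adjusted p 0.0703), and was at -0.99 (adjusted p 2.55e-07) without scaling factors. The calls of miR-30f and miR-30b-5p also rest on the scaling: without factors they were at 0.13 (adjusted p 0.349) and -0.10 (adjusted p 0.185), and the split of all called miRNAs was 90 higher and 241 lower, against 144 and 180 with TMM.

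Liver against skeletal muscle separated miR-30a from most of the others. Of 10 entries, 5 were higher and 2 lower in liver, with 85.3% of all miRNAs called, 45.5% higher and 39.8% lower. The members higher in liver were miR-30f (log2 1.26 ± 0.13), miR-30e-5p (1.12 ± 0.09), miR-30c (1.07 ± 0.08), miR-30b-5p (0.84 ± 0.07) and miR-30e-3p (0.32 ± 0.08), whose call was lost in LOS fetuses (0.19, edgeR adjusted p 0.0894) and with the 3 most abundant miRNAs removed (0.06, adjusted p 0.471). The 2 lower in liver were miR-30a-5p (-0.72 ± 0.11) and miR-30a-3p (-0.86 ± 0.10), and without scaling factors these were at 0.00 (adjusted p 0.995, edgeR) and -0.15 (adjusted p 0.224). miR-30d was at 0.05 ± 0.13 with a 95% interval from -0.23 to 0.34 (edgeR adjusted p 0.727), and at 0.77 (adjusted p 0.000153) without scaling factors. In this pair the median of all miRNAs moved to 0.81 without scaling factors, against 0.10 with them, and the split of called miRNAs to 226 higher and 105 lower, against 170 and 149.

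Tongue lay below liver for most members and below muscle for fewer. Against liver, 7 of 10 entries were lower and 0 higher in tongue, with 85.3% of all miRNAs called, 39.3% higher and 46% lower. miR-30f had the largest difference, at log2 -1.44 ± 0.13, followed by miR-30e-3p at -1.03 ± 0.08, miR-30c at -0.89 ± 0.08, miR-30e-5p at -0.88 ± 0.09, miR-30d at -0.87 ± 0.13, miR-30b-5p at -0.79 ± 0.07 and miR-30f-3p at -0.59 ± 0.12. miR-30a-5p was at 0.11 ± 0.10 with a 95% interval from -0.12 to 0.33 (edgeR adjusted p 0.353). Without scaling factors it turned to -0.26 (adjusted p 0.0318), as the median of all miRNAs moved to -0.50, against -0.14, and the split of called miRNAs to 115 higher and 214 lower, against 147 and 172.

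Tongue and skeletal muscle, which both hold striated muscle, differed by 1 higher and 5 lower entries in tongue, with 64.7% of all miRNAs called, 33.7% higher and 31% lower. miR-30a-3p (log2 -0.99 ± 0.10), miR-30d (-0.82 ± 0.13), miR-30e-3p (-0.72 ± 0.08), miR-30a-5p (-0.61 ± 0.10) and miR-30f-3p (-0.49 ± 0.12) were lower in tongue. miR-30e-5p was higher, at 0.24 ± 0.09 (edgeR adjusted p 0.033), and this call was lost without control 1, control 2 or control 3, with adjusted p of 0.141, 0.222 and 0.11. Tongue control 4 had the lowest miR-30d of the tongue libraries, 1601 CPM against 2016 to 3103 CPM in the others. Without that fetus the miR-30d difference was -0.64 (edgeR adjusted p 9.74e-05). Without scaling factors, miR-30b-5p (0.40) and miR-30c (0.53) passed as higher in tongue and miR-30f-3p was lost (-0.14, adjusted p 0.317, edgeR). The median of all miRNAs then stood at 0.37, against 0.02, and the split of called miRNAs at 214 higher and 73 lower, against 126 and 116.

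**Figure D3:**
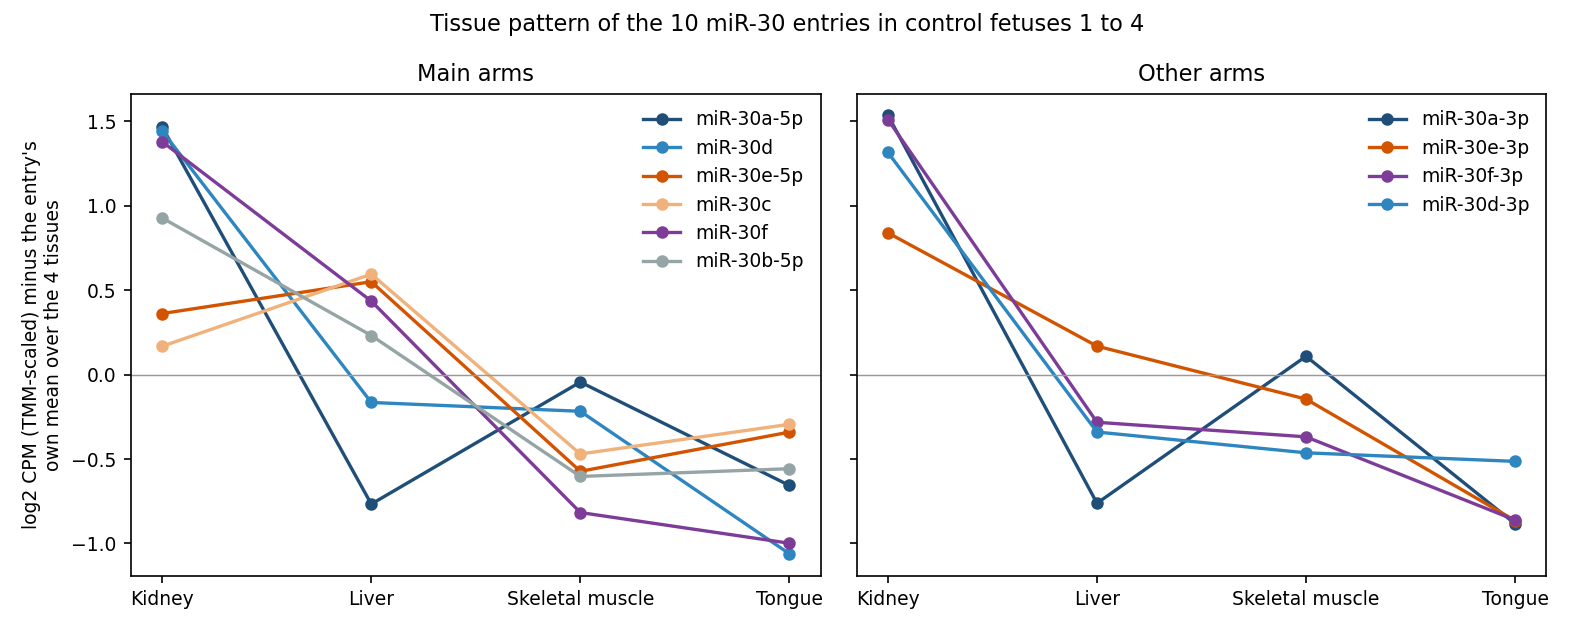
Mean log2 CPM with TMM scaling in control fetuses 1 to 4, centred for each entry on its own mean over the 4 tissues, for the main strands (left) and the other strands (right). miR-30c and miR-30e-5p follow each other and peak in liver, while the other entries peak in kidney.

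In the TMM-scaled patterns, the spread between the highest and the lowest tissue was 2.50 on the log2 scale for miR-30d, 2.38 for miR-30f, 2.23 for miR-30a-5p, 1.53 for miR-30b-5p, 1.12 for miR-30e-5p and 1.07 for miR-30c, against a median of 1.95 over the 374 miRNAs. The closest pair of members by root mean square difference over the 4 tissues was miR-30c with miR-30e-5p, at 0.114 log2 units, and the strands miR-30a-5p and miR-30a-3p lay 0.141 apart. miR-30b-5p and miR-30d lay 0.454 apart, and miR-30e-5p and miR-30e-3p lay 0.456 apart. Among 364 miRNAs outside the family, the patterns nearest to miR-30a-5p were let-7e-3p (0.279) and miR-98-3p (0.383), and those nearest to miR-30d were miR-107 (0.295) and miR-708-3p (0.359). miR-30b-5p was nearest to miR-103 (0.0795) and miR-107 (0.183), and miR-30f to miR-107 (0.275) and miR-874 (0.317). miR-30c was nearest to miR-21-5p (0.1003) and miR-18a (0.107), and miR-30e-5p to miR-25 (0.126) and miR-28 (0.130). These distances describe 4 tissue means and carry no test.

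Strand use of the precursors differed between tissues, with the largest log2 differences for miR-30f and miR-30e. The ratio of main to other strand was computed from the counts within each library, so it needs no scaling. miR-30e-5p had 13.5 ± 1.06 reads per read of miR-30e-3p in kidney, 13.4 ± 1.178 in muscle, 23.96 ± 1.63 in liver and 25.8 ± 1.69 in tongue (SD, n = 8, 8, 13 and 16). Kidney and muscle libraries, at 11.2 to 15.0, did not overlap with liver and tongue libraries, at 19.99 to 29.6. In control and LOS libraries, the log2 ratio was lower in kidney than in liver by a difference of -0.84 (exact two-sided permutation test, adjusted p 0.000152) and lower in kidney than in tongue by -0.94 (exact permutation, adjusted p 1.63e-05). Kidney and muscle differed by 0.01 (exact permutation, adjusted p 0.846). The permutation tests of strand ratios between tissues took all libraries as independent. They leave out that fetus numbers are shared between tissues, so their p take no account of that pairing.

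miR-30f split its strands differently in liver. It had 27.4 ± 3.25 reads per read of miR-30f-3p in liver, against 14.6 ± 1.70 in kidney, 11.7 ± 1.73 in muscle and 15.1 ± 1.68 in tongue, and no library of the other tissues reached the lowest liver library (23.6). The log2 ratio differed by -0.86 for kidney against liver, 1.19 for liver against muscle and -0.82 for tongue against liver, each past the threshold in the exact permutation test with adjusted p of 0.000152, 0.000152 and 1.63e-05. miR-30a-5p had 72.7 ± 5.41 reads per read of its other strand in tongue, against 61.5 ± 5.40 in kidney, 60.2 ± 3.48 in liver and 57.6 ± 4.96 in muscle. miR-30d had 79.3 ± 11.5 in tongue, against 111 ± 4.81 in kidney, 103 ± 10.4 in liver and 125 ± 17.0 in muscle. Over the 4 precursors and 6 tissue pairs, 17 of 24 differences passed, and in 8 of the 24 the libraries did not overlap. Strand ratios of precursors outside the family were not computed. These counts therefore have no background and do not show strand use particular to miR-30.

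**Figure D4:**
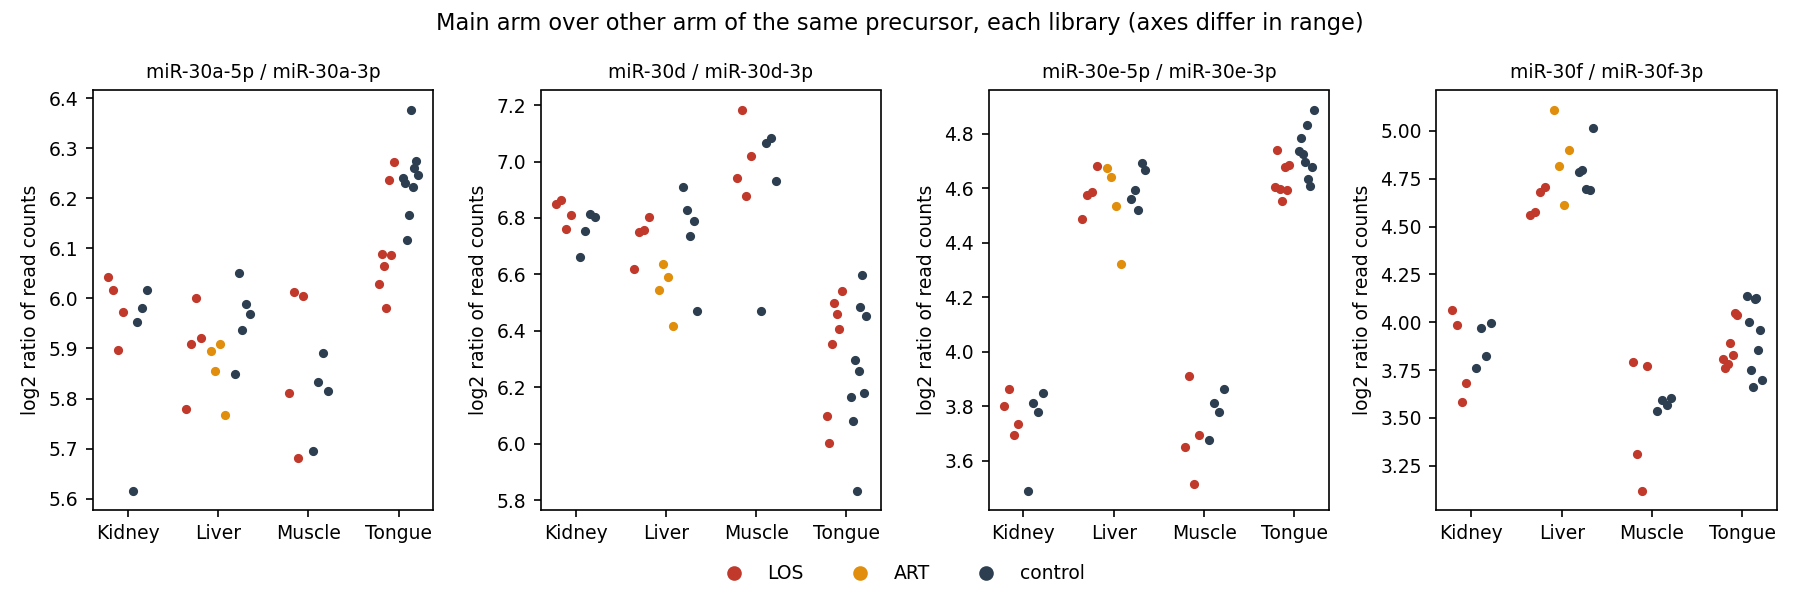
The log2 ratio of main-strand to other-strand read counts for the 4 precursors with both strands listed, 1 point per library, by tissue and group (axes differ in range and do not start at 0). For miR-30e, kidney and muscle lie below 4, and liver and tongue lie above 4.

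LOS was compared with control to ask which miRNAs differ with overgrowth. LOS fetuses came from assisted reproduction and controls from artificial insemination, so in this comparison overgrowth and mode of conception cannot be told apart. Only in liver do the ART fetuses allow the same question against other fetuses from assisted reproduction. No miR-30 entry passed the test in any of the 6 comparisons by edgeR's quasi-likelihood test, and likewise 0 passed with DESeq2 or limma-voom. The 60 log2 differences ran between -0.17 and 0.36, and their adjusted p between 0.315 and 0.998. Only 1 of the 60 had an unadjusted p under 0.05. For the 6 main strands, the 95% intervals of the differences lay between -0.42 and 0.48 on the log2 scale over the 6 comparisons, which is 0.750 to 1.40 times the level of the fetuses compared with. The labels do not say more of the fetuses' parentage or litters, so the spread is that between these samples.

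In kidney, 0 of 10 entries passed, where 0% of 436 miRNAs were called and 33 had an unadjusted p under 0.05. miR-30a-5p had 80047, 82766, 76075 and 68608 CPM in LOS kidneys, against 67870.5, 74960.3, 76338 and 72937 CPM in control kidneys. The 2 highest kidneys were LOS, and the groups overlapped (log2 difference 0.07 ± 0.09, SE, edgeR adjusted p 0.918). miR-30f had the largest difference of the main strands in kidney, with 2227, 2519.7, 1901 and 1753 CPM in LOS kidneys against 2304, 2289, 2316 and 2311 CPM in control kidneys. The controls lay close together and the LOS kidneys on both sides of them (log2 -0.14 ± 0.12, edgeR adjusted p 0.862). The family's share was 9.94% ± 0.717 in LOS and 9.52% ± 0.401 in control kidneys (SD, n = 4 each).

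In liver, LOS against control gave 0 of 10 entries, where 1.24% of 563 miRNAs were called (1.07% higher, 0.178% lower) and 79 had an unadjusted p under 0.05. ART against control gave 0 of 10, where 0% were called and 46 had an unadjusted p under 0.05, and LOS against ART gave 0 of 10, where 2.66% were called (1.07% higher, 1.6% lower) and 87 had an unadjusted p under 0.05. LOS and ART were set against the same 5 control livers, so these comparisons share samples. miR-30a-5p had 28806, 30887, 23748 and 28413 CPM in LOS livers and 20845, 20614, 23500.4 and 29488 CPM in ART livers, against 28864, 24328, 23717, 32039 and 24239 CPM in control livers. The 2 lowest livers were ART, and the 3 groups overlapped. The log2 differences were 0.06 ± 0.12 for LOS against control, -0.16 ± 0.12 for ART against control and 0.21 ± 0.13 for LOS against ART, with edgeR adjusted p of 0.862, 0.761 and 0.435.

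Of the 60 values of the family, 1 came from groups that did not overlap in CPM, and it was that of miR-30d in LOS against ART livers, where 9.41% of the 563 miRNAs did not overlap, 5.15% with LOS higher. Over the 6 comparisons, 4.83% of the 3024 values of all miRNAs came from such groups: 4.59% in kidney, 4.44% in LOS against control livers, 3.02% in ART against control livers, 7.06% in muscle and 0% in tongue. The 1 of 10 entries in LOS against ART livers is near that background. It had 5647, 5591, 5859 and 5694 CPM in LOS livers, against 5139, 5232, 5539 and 5038 CPM in ART livers, and all 4 LOS livers lay above all 4 ART livers. The difference was small, log2 0.09 ± 0.05, and missed the threshold (edgeR unadjusted p 0.0847, adjusted p 0.367). The 5 control livers had 5467, 5521, 5367, 5952 and 5361 CPM and overlapped with both groups. The entry with an unadjusted p under 0.05 was the other strand miR-30f-3p, with 96.0, 115, 69.3 and 89.9 CPM in LOS livers against 61.7, 66.2, 72.9 and 81.5 CPM in ART livers. Those groups overlapped, and the log2 difference was 0.36 ± 0.16 (edgeR unadjusted p 0.0487, adjusted p 0.315).

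miR-30e-5p, the second member of the family in liver, had 8954, 10039, 9363 and 8739 CPM in LOS livers and 9225, 9275, 9778 and 9442 CPM in ART livers, against 8784, 9549, 9468, 10482 and 9590.4 CPM in control livers. The groups overlapped, with log2 differences of -0.06 ± 0.05 for LOS against control and -0.01 ± 0.05 for ART against control (edgeR adjusted p 0.669 and 0.992). miR-30b-5p had the lowest adjusted p of the family in LOS against control livers, at log2 -0.08 ± 0.04 (edgeR adjusted p 0.416).

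In skeletal muscle, 0 of 10 entries passed, where 0% of 439 miRNAs were called and 58 had an unadjusted p under 0.05. miR-30a-5p had 22395, 27168, 24043 and 27082 CPM in LOS muscles, against 22932, 29150.5, 28847 and 28155 CPM in control muscles. The control range was held open by control 1, and 3 of 4 controls lay above all LOS muscles (log2 -0.09 ± 0.09, edgeR adjusted p 0.675). Without control 1 the difference was -0.15 (edgeR adjusted p 0.511). miR-30e-5p had 2332, 3006, 2338 and 2347 CPM in LOS muscles, against 2341, 2695, 2789 and 2883 CPM in control muscles. LOS 2 lay above all controls and the other LOS muscles near the lowest control (log2 -0.07 ± 0.10, edgeR adjusted p 0.761). The median absolute log2 difference of the 10 entries was 0.06, against 0.15 over all 439 miRNAs. Muscle counts ran down to 6 reads over all miRNAs and to 116 in the family. No set of like abundance was compared, so these medians do not show that the family is steadier than others.

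In tongue, 0 of 10 entries passed, where 0% of 460 miRNAs were called and 25 had an unadjusted p under 0.05, in a fit with sex as a term. miR-30a-5p ran from 20384 through a median of 22920.3 to 25218 CPM in LOS tongues, against 21428 through 23961 to 26402 CPM in control tongues. miR-30d ran from 2016 through 2773 to 3012 CPM in LOS tongues, against 1601 through 2726 to 3103 CPM in control tongues. Both ranges overlapped, with log2 differences of -0.10 ± 0.06 for miR-30a-5p and 0.02 ± 0.10 for miR-30d (edgeR adjusted p 0.915 and 0.987). Without tongue control 9, the miR-30a-5p difference was -0.08 ± 0.06 (edgeR adjusted p 0.945), and 0 of 10 entries passed.

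**Figure D5:**
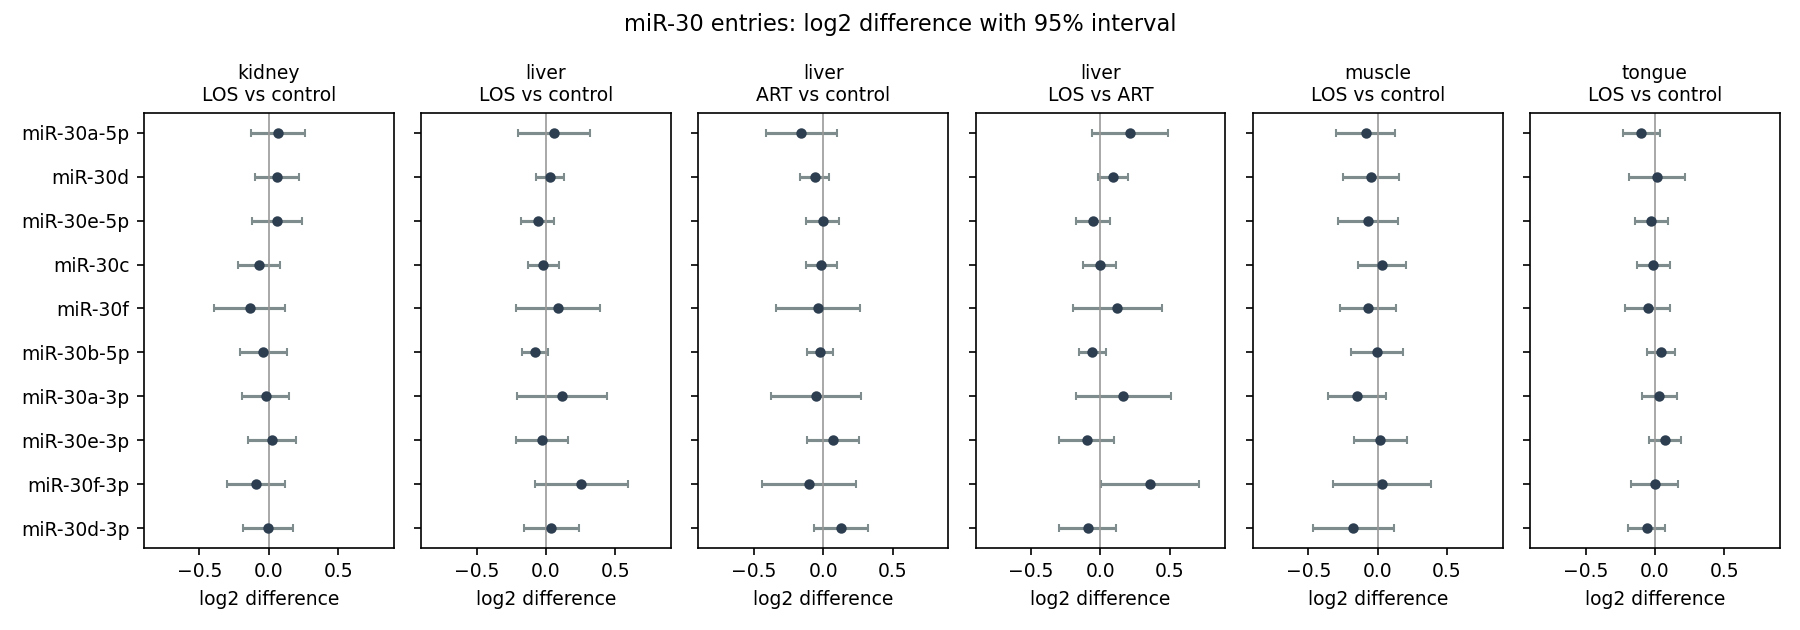
The log2 difference of the 10 miR-30 entries in the 6 group comparisons (points) with 95% intervals (bars) from edgeR's quasi-likelihood fit. All intervals cover 0 except that of miR-30f-3p in LOS against ART livers, whose adjusted p was 0.315.

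Sex gave no called member in tongue either. Male against female fetuses gave 0 of 10 entries, where 0% of miRNAs were called and 62 had an unadjusted p under 0.05 (edgeR), and 0 passed with DESeq2 or limma-voom. miR-30d had the largest difference, running from 2358 through a median of 2858 to 3103 CPM in 7 male tongues, against 1601 through 2619.9 to 2934 CPM in 9 female tongues. The ranges overlapped (log2 0.21 ± 0.10, edgeR unadjusted p 0.0385, adjusted p 0.346). The LOS difference was not shown to depend on sex, with 0 of 10 entries past the edgeR interaction test, 0% of miRNAs called, 20 of 460 miRNAs at an unadjusted p under 0.05 and adjusted p from 0.979 to 0.998 for the family, and 0 with limma-voom. Between kidney, liver and muscle the LOS difference was likewise not shown to differ, with 0 of 10 entries past the edgeR test, 1.29% of 389 miRNAs called, 73 at an unadjusted p under 0.05, adjusted p from 0.36 to 0.968 for the family, and 0 entries with limma-voom.

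Strand ratios did not pass between groups. Over the 4 precursors and 6 comparisons, 0 of 24 log2 strand ratios passed the exact permutation test after adjustment, 3 had an unadjusted p under 0.05, and the lowest adjusted p was 0.294. The 3 were miR-30a in LOS against control tongues (difference -0.13, exact permutation p 0.0147), miR-30e in the same tongues (-0.10, exact p 0.0306) and miR-30f in LOS against control livers (-0.16, exact p 0.0476). With 4 against 4 libraries, the exact permutation test cannot give a p below 0.0286, and with 4 against 5 none below 0.0159. Such a p passes the adjustment over 24 tests only if several others are as low. In kidney, liver and muscle a call was therefore hardly possible.

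The proportions of the members varied over the libraries of a tissue to different degrees. The SD over libraries of the log2 ratio of 2 main strands was smallest for miR-30b-5p to miR-30c in kidney (0.0468), for miR-30b-5p to miR-30e-5p in liver (0.0592), for miR-30d to miR-30f in muscle (0.0558) and for miR-30a-5p to miR-30f in tongue (0.106). It was largest for miR-30e-5p to miR-30f in kidney (0.181) and liver (0.245), for miR-30b-5p to miR-30e-5p in muscle (0.182) and for miR-30b-5p to miR-30d in tongue (0.234). The ratios share the library and its depth and are given as a description.

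A list of 12 miRNAs of epithelial state and fibrosis, settings in which miR-30 is known, was read beside the family. It holds the epithelial miR-200a, miR-200b, miR-200c, miR-141 and miR-429, the fibrosis-linked miR-21-5p, miR-29a, miR-29b and miR-29c, and the mesenchymal miR-199a-5p, miR-199a-3p and miR-214. By edgeR, 0 of the listed members passed in the LOS and ART comparisons, out of 12 tested in liver, 11 in kidney, 11 in tongue and 5 in muscle. In LOS against control livers 11 of the 12 had differences above 0 and the median was 0.19 on the log2 scale, against 0.01 over all 563 miRNAs. Differences above 0 numbered 7 of 12 in ART against control livers and 8 of 12 in LOS against ART livers. For LOS against control they numbered 6 of 11 in kidney, 2 of 5 in muscle and 8 of 11 in tongue. The list was chosen with earlier results of these data known, and these counts carry no test. The 6 mesenchymal markers (miR-199a-5p, miR-199a-3p, miR-199b, miR-214, miR-143 and miR-145), of which the list holds 3, summed to 75920.3 to 89499.7 CPM in LOS livers and 67208 to 76298 CPM in ART livers, against 58971 to 77336 CPM in control livers. Most of this sum was miR-143, which is not on the list and averaged 68935.5 CPM over all livers. The 3 markers on the list averaged 2691 CPM (miR-199a-3p), 535 CPM (miR-199a-5p) and 116 CPM (miR-214). The part of these markers in the differences of the list was not tested. The largest differences of the list in LOS against control livers were miR-214 (0.54 ± 0.23, edgeR adjusted p 0.342) and miR-199a-5p (0.49 ± 0.24, adjusted p 0.362), and in LOS against ART livers miR-214 (0.58 ± 0.25, adjusted p 0.268) and miR-199a-3p (0.46 ± 0.22, adjusted p 0.330). In LOS against control kidneys the largest were miR-141 (0.36 ± 0.22, edgeR adjusted p 0.749) and miR-200c (0.31 ± 0.14, adjusted p 0.646). In ART against control livers they were miR-141 (0.39 ± 0.35, edgeR adjusted p 0.817) and miR-200c (0.22 ± 0.31, adjusted p 0.885). Muscle and tongue had smaller ones for LOS against control: miR-199a-3p (-0.14 ± 0.09, edgeR adjusted p 0.487) and miR-214 (0.13 ± 0.15, adjusted p 0.682) in muscle, and miR-29c (0.09 ± 0.12, adjusted p 0.915) and miR-141 (0.06 ± 0.15, adjusted p 0.959) in tongue. Of the 5 listed in all tissues, 5 were called in each tissue pair, where 64.7% to 86.6% of the 374 miRNAs were called. In kidney against liver, miR-214 was at 3.28 ± 0.15, miR-141 at 2.95 ± 0.34, miR-199a-5p at 2.47 ± 0.14 and miR-199a-3p at 2.43 ± 0.12, while miR-21-5p was at -0.38 ± 0.09.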

How the data were processed

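Total RNA from frozen tissue went through the TruSeq small RNA kit with gel size selection, per the labels' protocols. The authors deposited whole-number read counts per mature miRNA, not normalized, in 1 table per tissue; Bowtie and the build UMD3.1, and for tongue cutadapt 1.18, are named in the submitters' processing notes without roles. The sources used here name no counting tool or abundance filter, and totals are of listed miRNAs only. Counts were tested with edgeR 4.0.16 in R 4.3.3 (quasi-likelihood test, TMM scaling, its default filter, which removed 0 miRNAs, Benjamini-Hochberg adjustment over each table, call at 0.05). The 3 liver groups were fitted together, tongue had a term for sex, and tissue pairs used control fetuses 1 to 4 with the fetus as a block. The labels use the same fetus numbers in each tissue but do not state that a number is the same animal, so this was assumed. Deviations of same-numbered libraries of 2 tissues correlated at r from -0.36 to 0.61, over 0.1 in 33 of 48 pairs. No differently numbered pairs of 2 tissues were set beside them. Strand ratios used exact two-sided permutation tests without pairing by fetus, adjusted over 24 tests. DESeq2 1.42.0 and limma 3.58.1 (voom), other scalings and filters and leaving out each library were alternatives. Intervals cover 95%. Code was tested on simulated data.

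All 10 miR-30 entries are named; beside them, for each main strand, the 2 miRNAs outside the family with the nearest tissue pattern, and from the list of 12 those called or else the 2 with the largest difference where the text turns on them. The members and lists were chosen with earlier results of these data known. No 2 libraries of a group agreed within sampling noise (lowest chi-square per degree of freedom 23.9). Mature sequences are not printed because none was in the files used here.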

Additional observations from a re-analysis of the deposited data

Results flagged for a closer look

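Of 135 groups of 4 to 10 libraries, 5 had a library whose gap to the others was large for the range of its group, where chance gives about 1 in 20. In skeletal muscle, control 1 had 22932 CPM of miR-30a-5p, against 28155 to 29150.5 CPM in the other 3 controls, and 3.11% of its reads in the family, against 3.77% to 3.84%. Without that library, the miR-30a-5p difference of LOS against control muscles was log2 -0.15 (edgeR adjusted p 0.511), against -0.09 with it, and 0 entries were called. LOS 2 in skeletal muscle had 3006 CPM of miR-30e-5p, against 2332 to 2347 CPM in the other LOS muscles. Control 4 in liver had 5952 CPM of miR-30d, against 5361 to 5521 CPM in the other controls. In kidney, control 1 had a log2 ratio of miR-30a-5p to miR-30a-3p of 5.62, against 5.95 to 6.02 in the other controls. Whether these libraries differ in tissue sampled, RNA or handling was not tested.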

How the results depend on the processing

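In the 6 group comparisons, the sex comparison and both interactions, 0 members were called under any alternative run. Over 2287 refits of single entries and strand ratios between groups the lowest adjusted p was 0.0767. This count is not one of separate checks. Leaving out a library changed the strand ratios of its own tissue only, so the tests of the other tissues were repeated. The exact tests of strand ratios in small groups could also hardly pass, with no p below 0.0286 for 4 against 4 libraries. Members called in tissue pairs ran from 7 to 9 for kidney against liver, 9 to 10 for kidney against muscle and against tongue, 5 to 8 for liver against muscle, 7 to 10 for tongue against liver and 5 to 8 for tongue against muscle. Removing the 3 most abundant miRNAs takes miR-30a-5p itself out of these fits. Among entries called with or without scaling factors, the sign turned without them for miR-30b-5p (-0.10) and miR-30e-3p (-0.13) in kidney against liver, for miR-30a-5p (-0.26) in tongue against liver and for miR-30d-3p (0.30) in tongue against muscle. Leaving out the factors moves the median of all miRNAs too. The family's shares without the 3 most abundant miRNAs were 6.60% for liver, 5.02% for muscle, 4.87% for tongue and 4.33% for kidney. The kidney share alone lacks miR-30a-5p. Strand ratios called between tissues ran from 15 to 17.

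Replicate numbers of different groups in a tissue do not pair the samples (r from -0.37 to 0.27, over 0.1 in 6 of 27). With the number as a replicate block, 0 members were called in each group comparison. The paired test of strand ratios between tissues called 16 of 24. Without the fetus block, tongue against muscle gave 7 members, against 6, and no other tissue count changed.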
